A study of Homo sapiens with 12 samples.

Results

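The genes of apoptosis and of the TNF ligand and receptor families were followed through the SMARCA4 knockout (KO) of the breast cancer lines MDA-MB-468, which is epithelial, and MDA-MB-231, which is mesenchymal. Members were the rows of the expression table whose symbol starts with TNFRSF, TNFSF or BCL2, or is CASP followed by a number, together with BAX, BAK1, BAD, BID, BIK, BMF, BBC3, PMAIP1, MCL1, CFLAR, FADD, XIAP, BIRC2, DIABLO, APAF1, CYCS and FAS. This rule gave 46 genes of the 11529 in the table, of which 15 are TNF ligands or receptors and 31 belong to the BCL2 family, the caspases and their regulators. FAS, BCL2 and CASP9 were not analysed here, since the table holds no row of these names. The 46 genes were sorted by their known function into 13 roles.

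These are established lines of triple negative breast cancer. The RNA-seq data cover 12 samples in 4 groups, with 3 control and 3 KO samples per line. The KO cells carried lentiCRISPR-v2, a lentivirus that delivers Cas9 and a guide RNA, here with a guide against SMARCA4, and were selected with puromycin. SMARCA4 encodes BRG1, an ATPase of the SWI/SNF chromatin remodelling complex. The controls are labelled wild type at this gene and are called controls in the sample descriptions. The study describes control cells with a nontargeting vector beside unedited cells, and the labels do not say which of these were sequenced. None of the 12 samples is labelled with a drug treatment. The sources describe selection of transduced cells and no isolation of single clones, so the KO values are averages over a mixed pool of cells. Nothing in the labels says that the 3 samples of a group came from separate cultures, so the p-values measure only the spread between these samples, which may be technical.

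Apoptosis can start at the cell surface or at the mitochondrion. In the first route, ligands such as TRAIL bind death receptors, whose adaptor FADD recruits the initiator caspases. In the second, BH3-only proteins bind and block the protective BCL2 proteins or activate BAX and BAK1, which open the outer mitochondrial membrane and let out cytochrome c, so that APAF1 can assemble the apoptosome and executioner caspases are switched on. Many members of the TNF families do not kill cells and act instead through NF-kB or on immune cells.

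SMARCA4 itself was at 96.9 to 101 FPKM (fragments per transcript length and library size, a level per length) in the MDA-MB-468 controls and at 39.7 to 47.7 FPKM in the KO samples, 44.3% of the control mean. In the MDA-MB-231 line it was at 67.0 to 71.5 FPKM in controls and at 21.0 to 23.9 FPKM in KO samples, 32.7% of the control mean. By limma's test it fell in the first line (log2 fold change -1.16, adjusted p = 0.0137) and in the second (-1.57, adjusted p = 0.00143), and in the first its adjusted p was 0.0696, 0.0565 and 0.0748 without control replicates 2 or 3 or KO replicate 2. Of 7 markers of MDA-MB-468 and 4 of MDA-MB-231 cells, all but CD44 had the higher control mean in their own line. CDH1 had a control mean of 44.5 FPKM in MDA-MB-468 and of 0.267 FPKM in MDA-MB-231 cells, and VIM of 2.61 and 1309 FPKM. CD44, a listed marker of MDA-MB-231 cells, was at 890 FPKM in MDA-MB-468 and 482 FPKM in MDA-MB-231 controls. Of 8 leukocyte markers 2 had a row, CD14 and CD68. Their control means were 49.6 and 1.67 FPKM in MDA-MB-468 and 1.16 and 95.8 FPKM in MDA-MB-231 cells. CD14 moved from a mean of 1.16 to 3.98 FPKM in MDA-MB-231 KO cells (log2 fold change 1.18, adjusted p = 0.0294, and 0.0644 to 0.107 without control replicates 1, 2 or 3 or KO replicates 1 or 2). The part of this change in the results below was not tested. The number of genes above 0 was 11293 to 11362 per sample, and each sample correlated with the mean of its group at 0.996 to 0.998 across genes. The table was filtered by its authors on the mean and the SD of FPKM, so a member with low values in most samples is in it only if it is high somewhere. In bulk RNA, fewer cells that express a gene and less RNA of it per cell cannot be told apart.

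Of the 4 genes that rose in a KO comparison, 3 have a promoter window in RefSeq (GRCh38.p14), and the 250 bases before their annotated starts are shown because the expression results turn on these genes. BIK, the other of them, is named only. TNFSF9 lies on the plus strand of chromosome 19 with its window at chr19:6530776-6531025, TNFRSF1B on the plus strand of chromosome 1 at chr1:12166741-12166990, and BBC3 on the minus strand of chromosome 19 at chr19:47232668-47232917. Each line reads 5′ to 3′ towards the start, and capitals mark the GC box (GGGCGG) and the TATA box (TATAAA) in TNFSF9, the overlapping GC boxes in TNFRSF1B, which are on the other strand, and the AP-1 motif (TGANTCA) in BBC3.
TNFSF9: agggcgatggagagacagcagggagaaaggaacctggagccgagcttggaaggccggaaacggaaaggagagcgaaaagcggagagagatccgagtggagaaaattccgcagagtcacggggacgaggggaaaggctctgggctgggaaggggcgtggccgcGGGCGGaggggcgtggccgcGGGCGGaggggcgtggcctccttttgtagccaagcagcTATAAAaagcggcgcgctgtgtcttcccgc
TNFRSF1B: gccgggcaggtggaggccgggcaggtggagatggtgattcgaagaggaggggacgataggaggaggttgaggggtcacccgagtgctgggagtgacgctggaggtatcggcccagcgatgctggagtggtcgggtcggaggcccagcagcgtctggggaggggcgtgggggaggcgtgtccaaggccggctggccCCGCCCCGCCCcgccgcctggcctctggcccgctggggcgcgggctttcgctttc
BBC3: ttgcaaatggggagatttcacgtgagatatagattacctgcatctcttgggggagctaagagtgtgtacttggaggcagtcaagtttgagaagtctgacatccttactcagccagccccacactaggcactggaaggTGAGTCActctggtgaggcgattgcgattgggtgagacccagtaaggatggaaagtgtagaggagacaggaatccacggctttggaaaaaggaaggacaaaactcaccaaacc

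The GC boxes of TNFSF9 begin at positions -88 and -68 from the start and its TATA box at -30. Those of TNFRSF1B begin at -55 and -50, and the AP-1 motif of BBC3 at -113. Windows were found for 33 of the 46 members and compared with all 27303 windows of the table, searching both strands. The GC box was in 22 of the 33 (66.7%) and in 42.3% of all windows, and the members' median GC content was 64.4% against 58.0%. The AP-1 motif was in 3 of the 33 (9.09%) against 6.60% of all, and the TEAD motif (CATTCC) in 2 (6.06%) against 11.9%. The TATA box was in 3 (9.09%) against 11.1%, an NF-kB motif in 4 (12.1%) against 9.57%, and a p53 motif of 10 bases in 2 (6.06%) against 5.53%. Of the 6 motifs the GC box had the widest gap between members and all windows, and the members' windows were also richer in G and C. A matching string is a description of the reference sequence and not a bound site.

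In MDA-MB-468 cells, KO was followed by a rise of TNFSF9 and by no other change past the threshold among the 46 genes. A gene was called where limma gave a Benjamini-Hochberg adjusted p under 0.05 over all 11529 rows and a log2 fold change beyond 0.5 in either direction, on the scale of log2(FPKM + 1). That is 1 of 46 members, 2.17%, and 2.14% of all genes were called, 1.33% as higher and 0.815% as lower, so the share of members did not stand above the background. With no limit on the fold there were 2 (TNFSF9 and TNFSF15) of 46, 4.35%, both higher, against 3.75% of all genes (2.21% higher and 1.54% lower). The members' median log2 fold change was 0.05, with 27 higher and 19 lower, and the median of all genes was 0.02. For 19 members (41.3%) the KO and control samples did not overlap, 12 with KO higher and 7 with KO lower, against 31.0% of all genes (17.5% and 13.5%). An unadjusted p under 0.05 was reached by 17 of the 46 members and by 25.1% of all genes.

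In MDA-MB-231 cells, 4 members rose after KO and none fell past the threshold: the BH3-only genes BIK and BBC3, the receptor gene TNFRSF1B and the ligand gene TNFSF9. These are 8.70% of the members, and 3.70% of all genes were called, 2.39% as higher and 1.31% as lower. With no limit on the fold 7 members (15.2%) passed, 5 higher (10.9%) and 2 lower (4.35%), against 10.8% of all genes (5.34% higher and 5.48% lower). Their median log2 fold change was 0.02 and that of all genes -0.01. The KO and control samples of 19 members (41.3%) did not overlap, 13 with KO higher and 6 with KO lower, against 36.0% of all genes (16.6% and 19.4%), and 19 (41.3%) had an unadjusted p under 0.05, against 31.2%. Most members therefore gave no call in either line, and the results rest on a few genes. The rows of the table were chosen by their spread over all 12 samples, which bears on every such share.

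**Figure D1:**
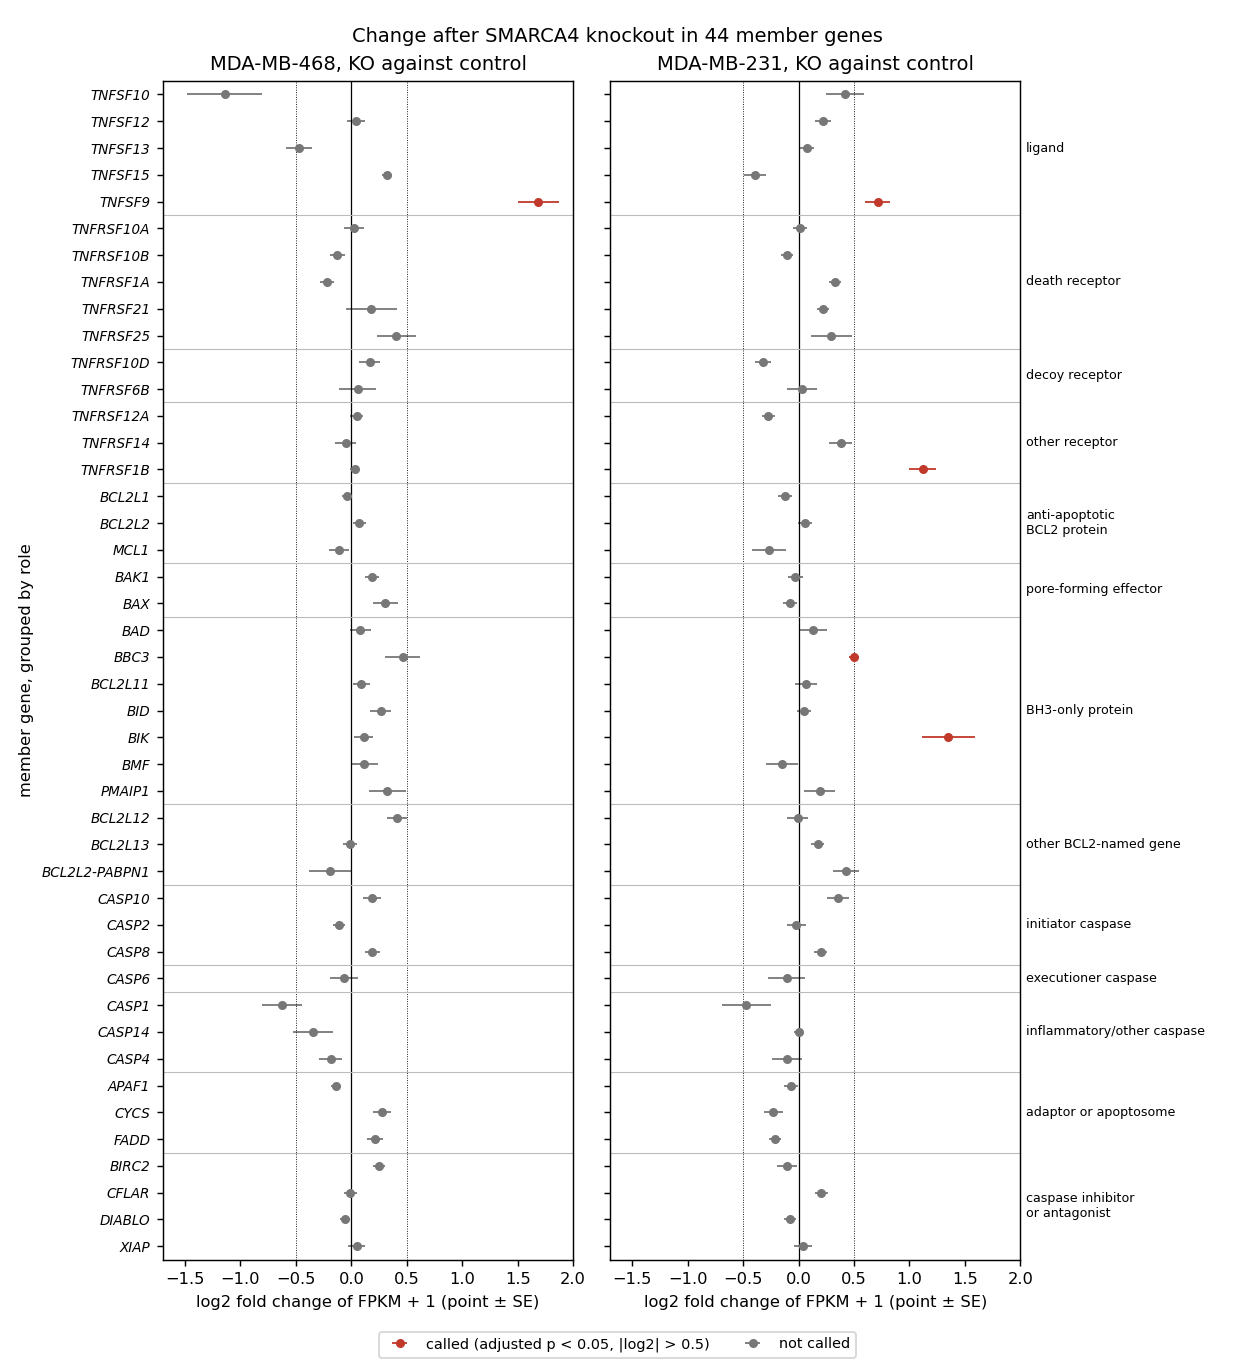
Log2 fold change of FPKM + 1 after KO (x axis, point ± SE, 3 KO against 3 control samples) of 44 of the 46 members, 1 gene per line and grouped by role, in MDA-MB-468 (left) and MDA-MB-231 cells (right). Red points passed the adjusted p and the fold limit of 0.5 (dotted lines): TNFSF9 in both panels, and TNFRSF1B, BBC3 and BIK on the right.

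Among the ligands, TNFSF9 (4-1BB ligand, which costimulates T cells through its receptor TNFRSF9) was the member that rose in both lines. In MDA-MB-468 cells it was at 15.8, 21.95 and 24.2 FPKM in KO replicates 1 to 3 and at 4.64, 5.79 and 6.63 FPKM in control replicates 1 to 3. All KO samples lay above all controls, and the KO mean was 363% of the control mean. The log2 fold change of 1.68 ± 0.19 (SE) had an adjusted p of 0.0199 from limma and of 0.0329 in the fit that pairs samples by replicate number (the replicate block). In another fit, pairs were set by the number in the sample descriptions. The KO and the control sample without a matching number were joined as a pair there. In that fit the call was lost (adjusted p = 0.14), as was that of every other gene. The call did not survive the loss of most single samples, since the adjusted p was 0.06 without control replicate 1, 0.101 without control replicate 2, 0.0585 without control replicate 3, 0.107 without KO replicate 2 and 0.0743 without KO replicate 3, while the log2 fold change stayed between 1.56 and 1.86. In MDA-MB-231 cells TNFSF9 was at 4.49, 5.82 and 5.02 FPKM in KO and at 3.17, 2.5 and 2.51 FPKM in control samples. The levels were lower than in MDA-MB-468 cells and again did not overlap, with KO at 187% of control. The log2 fold change there was 0.71 ± 0.11, with an adjusted p of 0.0215, and of 0.0954 with the replicate block. Only leaving out control replicate 1 kept this call (adjusted p = 0.036), and without control replicates 2 or 3 or KO replicates 1, 2 or 3 the adjusted p was 0.0519 to 0.0755.

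TNFSF10 encodes TRAIL, the ligand of the death receptors TNFRSF10A and TNFRSF10B, and was the ligand with the highest mean level over the 12 samples, 39.9 FPKM. In MDA-MB-468 cells it was at 28.6, 15.1 and 11.4 FPKM in KO and at 47.4, 38.4 and 32.3 FPKM in control samples. The groups did not overlap, yet the spread among KO samples was wide and the log2 fold change of -1.14 ± 0.34 did not pass (adjusted p = 0.117). Without KO replicate 1, the highest of the 3, it was -1.50 with an adjusted p of 0.0321. The MDA-MB-231 samples were at 66.7, 59.9 and 48.4 FPKM in KO and at 34.8, 46.3 and 49.1 FPKM in control samples. These overlapped, and the log2 fold change was 0.42 ± 0.17 (adjusted p = 0.162).

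TNFSF15 (TL1A, the ligand of TNFRSF25) was near the floor of the table in MDA-MB-468 cells, at 0.56, 0.60 and 0.57 FPKM in KO and 0.24, 0.30 and 0.24 FPKM in control samples. Its log2 fold change of 0.32 ± 0.04 had an adjusted p of 0.0291 and stayed under the fold limit. As 1 is added to each FPKM value, this understates the change of so low a gene, whose KO mean was 222% of the control mean. With 0.1 in place of 1 the log2 fold change was 0.91 and passed both limits, and with the replicate block the adjusted p was 0.0563. In MDA-MB-231 cells TNFSF15 was at 8.29, 6.63 and 6.35 FPKM in KO and at 9.81, 9.90 and 9.06 FPKM in control samples, with KO lower in every sample (log2 fold change -0.40 ± 0.10, adjusted p = 0.0596). TNFSF13 (APRIL, a survival factor of B cells) was at 18.5 to 23.2 FPKM in MDA-MB-468 KO samples and at 25.5 to 31.4 FPKM in controls (log2 fold change -0.47 ± 0.12, adjusted p = 0.0813), and at 6.89 to 8 against 7.04 to 7.29 FPKM in MDA-MB-231 cells. TNFSF12 (TWEAK, the ligand of TNFRSF12A), whose gene lies just upstream of TNFSF13 on the same strand with a readthrough gene annotated over both, so that reads of the pair may be split with error, gave 0.04 and 0.22 on the log2 scale, with adjusted p of 0.792 and 0.0982.

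**Figure D2:**
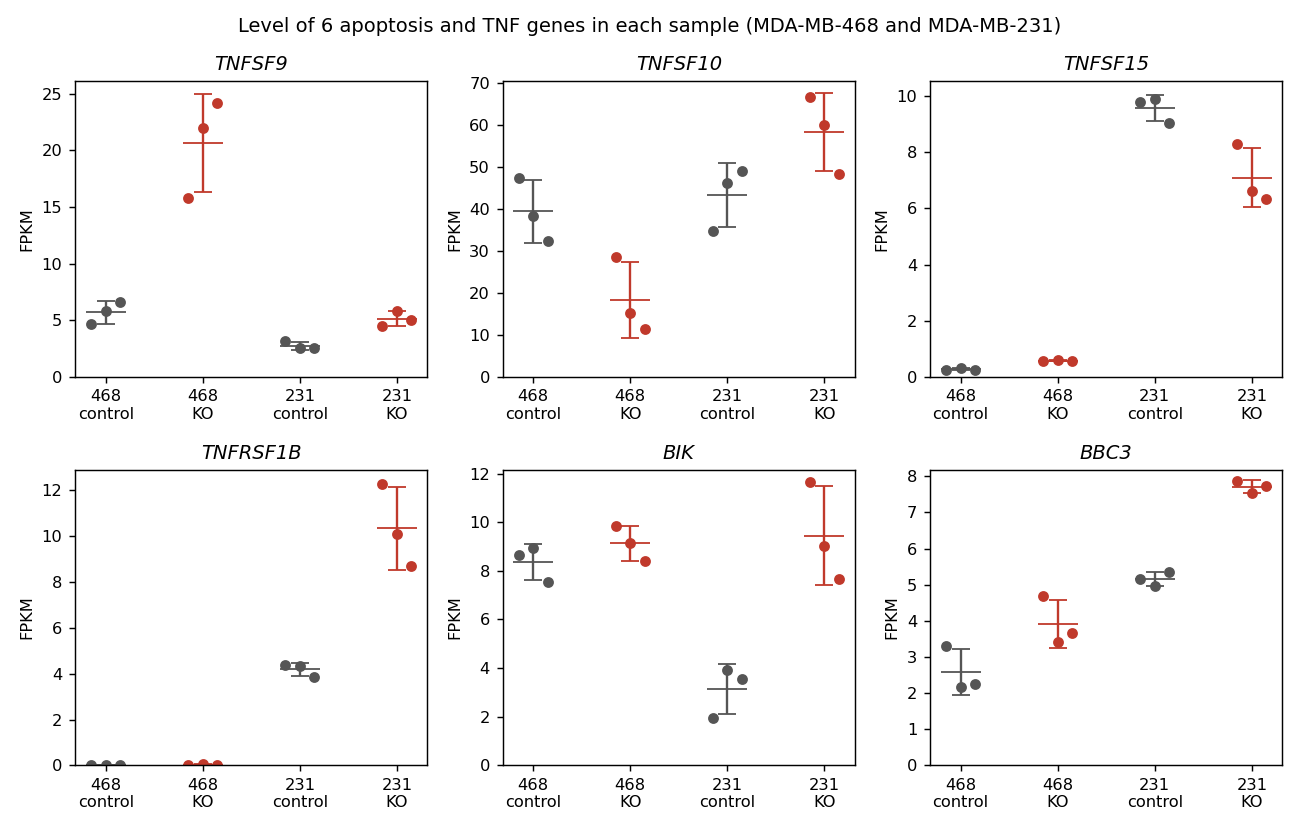
Level in FPKM (y axis, starting at 0 in each panel) of 6 members in each of the 12 samples, with controls in grey, KO samples in red, long bars for the mean and whiskers for the SD of 3 samples. TNFSF9 is separated by genotype in both lines, TNFRSF1B is between 0 and 0.04 FPKM in MDA-MB-468 cells, and BIK in MDA-MB-231 KO samples reaches the 7.55 to 9.84 FPKM of the MDA-MB-468 samples or passes it.

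Among the receptors, TNFRSF1B (TNFR2, which binds TNF but has no death domain) rose in MDA-MB-231 cells. It was at 12.3, 10.1 and 8.68 FPKM in KO and at 4.36, 4.31 and 3.87 FPKM in control samples. No KO sample overlapped the controls, the KO mean was 247% of the control mean, and the log2 fold change was 1.12 ± 0.12 (adjusted p = 0.0105). The call was lost without KO replicate 2 (adjusted p = 0.0581) and with the replicate block (adjusted p = 0.0635). In MDA-MB-468 cells TNFRSF1B was between 0 and 0.04 FPKM in all 6 samples, which is too low to give a fold.

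TNFRSF1A (TNFR1, the death domain receptor of TNF) was the death receptor with the highest mean level, 73.8 FPKM. In MDA-MB-231 cells it was at 102, 108 and 107 FPKM in KO and at 80.8, 88.8 and 82.3 FPKM in control samples. KO was higher in every sample, and the log2 fold change of 0.33 ± 0.05 had an adjusted p of 0.0251 but lay under the fold limit. In MDA-MB-468 cells it was at 49.7, 45.2 and 51.0 FPKM in KO and at 54.2, 56.5 and 59.6 FPKM in control samples, lower in every KO sample, with a log2 fold change of -0.22 ± 0.07 (adjusted p = 0.119).

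The TRAIL receptors gave no call in either line. TNFRSF10A (DR4) had log2 fold changes of 0.03 and 0.01 in the MDA-MB-468 and the MDA-MB-231 line, with adjusted p of 0.887 and 0.908. TNFRSF10B (DR5) had -0.13 and -0.10, with adjusted p of 0.307 and 0.246, and its KO samples lay below the controls in both lines. The decoy TNFRSF10D, a TRAIL receptor without a complete death domain, was at 13.2 to 14.7 FPKM in MDA-MB-231 KO and at 16.01 to 18.9 FPKM in control samples (log2 fold change -0.32 ± 0.08, adjusted p = 0.0514). It was under 1.1 FPKM in every MDA-MB-468 sample, and reads may be shared among these close paralogs. TNFRSF21 (DR6) was at 86.3 to 90.6 against 71.8 to 78.7 FPKM in MDA-MB-231 cells (log2 fold change 0.22 ± 0.05, adjusted p = 0.0538), TNFRSF25 (DR3) gave 0.40 ± 0.18 in MDA-MB-468 cells (adjusted p = 0.224), and TNFRSF6B, a soluble decoy, gave 0.06 and 0.03.

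TNFRSF12A (the TWEAK receptor) had the highest level of the TNF members, 165 FPKM over all samples. In MDA-MB-231 cells it was at 154, 161 and 169 FPKM in KO and at 198, 183 and 203 FPKM in control samples, below them in each case (log2 fold change -0.27 ± 0.06, adjusted p = 0.0479, under the fold limit). In MDA-MB-468 cells the ranges overlapped (log2 fold change 0.05 ± 0.06). TNFRSF14 (HVEM) was at 11.1 to 14.8 FPKM against 9.34 to 9.74 FPKM in MDA-MB-231 cells (log2 fold change 0.38 ± 0.10, adjusted p = 0.0681).

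At the mitochondrion, BIK (a BH3-only protein that antagonises the protective BCL2 proteins) had the largest log2 fold change of any member in MDA-MB-231 cells. It was at 11.7, 9.03 and 7.65 FPKM in KO and at 1.95, 3.91 and 3.56 FPKM in control samples, and the KO mean was 301% of the control mean. The samples were widely spread within each group and did not overlap between them. The log2 fold change was 1.35 ± 0.24 with an adjusted p of 0.028, and of 0.106 with the replicate block. Left-out samples ended this call in 5 of 6 cases, with an adjusted p of 0.0523 without control replicate 2, 0.0643 without control replicate 3, 0.086 without KO replicate 1, 0.101 without KO replicate 2 and 0.0529 without KO replicate 3. In MDA-MB-468 cells BIK was at 9.84, 9.13 and 8.41 FPKM in KO and at 8.63, 8.95 and 7.55 FPKM in control samples, which overlapped (log2 fold change 0.11 ± 0.08, adjusted p = 0.449).

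BBC3 encodes PUMA, a BH3-only protein best known as a target of p53. In MDA-MB-231 cells it was at 7.88, 7.54 and 7.72 FPKM in KO and at 5.17, 4.97 and 5.34 FPKM in control samples. This was the tightest of the called differences, at 0.50 ± 0.04 on the log2 scale (adjusted p = 0.00781, and 0.0707 with the replicate block), and it lay just over the fold limit. The fold, at 0.48 to 0.50, no longer passed the limit without control replicate 2, KO replicate 1 or KO replicate 3, nor at 0.42 after quantile normalization, while the adjusted p without each sample stayed at 0.0273 to 0.0485. In MDA-MB-468 cells BBC3 was at 4.68, 3.42 and 3.65 FPKM in KO and at 3.31, 2.18 and 2.26 FPKM in control samples, higher in every KO sample. There the log2 fold change was 0.46 ± 0.15, with an adjusted p of 0.145, and of 0.0486 in the paired fit with the replicate block, under the fold limit in either fit. KO was at 152% of control here and at 149% in the MDA-MB-231 line, and the test of the difference between the lines gave -0.04 ± 0.17 on the log2 scale (adjusted p = 0.903).

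The other 5 of the 7 BH3-only genes gave no call. PMAIP1 (NOXA, which targets MCL1) had log2 fold changes of 0.32 and 0.19 in the MDA-MB-468 and the MDA-MB-231 line, with adjusted p of 0.29 and 0.402. BID, which caspase 8 cleaves to link the receptor route to mitochondria, was at 119 to 129 FPKM in MDA-MB-468 KO samples and at 91.4 to 115 FPKM in controls (log2 fold change 0.26 ± 0.09, adjusted p = 0.153). BCL2L11 (BIM) gave 0.09 and 0.07, BAD 0.08 and 0.13, and BMF 0.12 and -0.15. All 7 had a positive log2 fold change in MDA-MB-468 cells, at a median of 0.12, as did 6 of 7 in MDA-MB-231 cells, at a median of 0.14, with 2 called. Of all 11529 genes 6175 were positive in the former line and 5490 in the latter, where 3.70% were called.

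The protective proteins of the family gave no call. BCL2L1 (BCL-XL) was at 57.2 to 60.0 FPKM in MDA-MB-468 KO samples and at 59.5 to 61.9 FPKM in controls, and at 240 to 250 against 247 to 280 FPKM in MDA-MB-231 cells, with log2 fold changes of -0.04 and -0.12. MCL1, a short-lived protective protein, gave -0.11 and -0.27, and BCL2L2 (BCL-W) 0.07 and 0.06. BCL2L2-PABPN1, a readthrough gene that shares reads with BCL2L2, is uncertain for that reason and gave -0.19 and 0.43. The pore-forming pair did not pass in MDA-MB-468 cells, with BAX at 0.31 ± 0.11 (adjusted p = 0.164) and BAK1 at 0.19 ± 0.07 (adjusted p = 0.16), and gave -0.07 and -0.03 in MDA-MB-231 cells. BCL2L12, named for a BCL2 homology domain, was at 54.0 to 59.1 against 37.2 to 46.1 FPKM in MDA-MB-468 cells (log2 fold change 0.41 ± 0.09, adjusted p = 0.0658).

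Of the 9 caspase genes none was called. CASP6, an executioner, was at 12.4 to 18.0 FPKM in MDA-MB-468 KO samples and at 14.98 to 15.98 FPKM in controls, and at 16.5 to 22.7 against 17.6 to 25.1 FPKM in MDA-MB-231 cells. The groups overlapped in both lines, with log2 fold changes of -0.07 and -0.11 and adjusted p of 0.79 and 0.707.

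The initiator CASP8 was higher in every KO sample of both lines, at 15.4 to 17.9 against 14.1 to 14.7 FPKM in MDA-MB-468 and at 18.6 to 20.4 against 16.2 to 17.5 FPKM in MDA-MB-231 cells. Its log2 fold changes were 0.19 and 0.20, with adjusted p of 0.151 and 0.0823. CASP10, its close relative, gave 0.19 and 0.36 with adjusted p of 0.235 and 0.0696, and CASP2 gave -0.11 and -0.02.

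The inflammatory caspases do not belong to the classical death pathway. CASP1, which matures interleukin-1 beta, was at 19.3, 12.8 and 12.3 FPKM in MDA-MB-468 KO samples and at 23.3, 24.9 and 20.7 FPKM in controls. The groups did not overlap and the log2 fold change was -0.63 ± 0.18 (adjusted p = 0.107). Leaving out KO replicate 1, the highest KO sample, brought CASP1 to -0.82 with an adjusted p of 0.0233, and TNFSF13 to -0.57 with an adjusted p of 0.0449. With TNFSF9 and TNFSF10 there were then 4 of 46 members called. That fit called 474 of all 11529 genes, against 247 with all samples, so calls rose over the whole table too. Leaving out any other sample of this line left 0 to 27 genes called. In MDA-MB-231 cells CASP1 was at 0.10 to 0.38 against 0.29 to 1.29 FPKM. CASP14, a caspase of keratinocyte differentiation, was the member with the highest level, at 1092, 749 and 734 FPKM in MDA-MB-468 KO samples and 1239, 1006 and 997 FPKM in controls, which overlapped (log2 fold change -0.35 ± 0.18, adjusted p = 0.293). It was listed at 0 in all 6 MDA-MB-231 samples. CASP4, which senses intracellular lipopolysaccharide, gave -0.19 and -0.11.

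Downstream of receptors and mitochondria, CYCS (cytochrome c) was at 175, 186 and 176 FPKM in MDA-MB-468 KO samples and at 132, 156 and 157 FPKM in controls (log2 fold change 0.27 ± 0.08, adjusted p = 0.116). Its MDA-MB-231 samples were at 111, 117 and 128 FPKM in KO and at 148, 127 and 141 FPKM in control samples (log2 fold change -0.23 ± 0.08, adjusted p = 0.13). KO was thus above control in MDA-MB-468 cells, without overlap, and mostly below it in MDA-MB-231 cells. FADD, the adaptor of the death receptors, was at 33.9, 35.5 and 32.5 against 27.7, 27.8 and 32.0 FPKM in MDA-MB-468 cells (log2 fold change 0.21 ± 0.07, adjusted p = 0.151). In MDA-MB-231 cells it was at 36.96, 37.8 and 35.4 against 41.3, 41.7 and 45.4 FPKM (log2 fold change -0.21 ± 0.06, adjusted p = 0.0628). Its samples did not overlap in either line, in opposite directions. APAF1, the scaffold of the apoptosome, gave -0.14 and -0.07.

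The caspase inhibitors and their antagonist gave no call. BIRC2 (cIAP1, a ubiquitin ligase of TNF receptor complexes) was at 30.8 to 33.9 against 26.3 to 28.2 FPKM in MDA-MB-468 cells (log2 fold change 0.25 ± 0.06, adjusted p = 0.0673) and gave -0.10 in MDA-MB-231 cells. CFLAR (cFLIP, which blocks CASP8 at the receptor) was at 56.8 to 63.8 against 50.5 to 53.2 FPKM in MDA-MB-231 cells (log2 fold change 0.21 ± 0.06, adjusted p = 0.0759) and gave -0.01 in MDA-MB-468 cells. XIAP, a direct inhibitor of caspases, gave 0.05 and 0.04, and its antagonist DIABLO (SMAC) -0.06 and -0.07.

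Other genes of these pathways were read from lists of genes that are no members. Of 22 genes of TNF receptor signalling 21 were measured, with 0 called in MDA-MB-468 cells by limma, where 4 had an unadjusted p under 0.05, and 1 in MDA-MB-231 cells. That gene was MAP3K14 (NIK, the kinase of non-canonical NF-kB signalling), which rose from 8.80 to 10.98 FPKM in controls to 14.5 to 17.3 FPKM in KO samples (log2 fold change 0.59 ± 0.10, adjusted p = 0.0275), a call lost without any 1 of the 6 samples (adjusted p of 0.0501 to 0.0931). Of 22 other apoptosis genes 19 were measured, and 1 was called in each line. BIRC3 (cIAP2, the paralog of BIRC2) rose in MDA-MB-468 cells from 4.12 to 5.64 FPKM in controls to 9.68 to 12.3 FPKM in KO samples (log2 fold change 1.04 ± 0.14, adjusted p = 0.0291, and 0.0612 with the replicate block). This call was kept without KO replicate 1 only, and was lost without control replicates 1, 2 or 3 or KO replicates 2 or 3 (adjusted p of 0.0508 to 0.114). CRADD (an adaptor of CASP2) fell in MDA-MB-231 cells from 6.48 to 7.87 FPKM in controls to 4.45 to 4.50 FPKM in KO samples (log2 fold change -0.56 ± 0.07, adjusted p = 0.0145). It was lost without KO replicate 1 (adjusted p = 0.0601) or KO replicate 2 (adjusted p = 0.0715), and without control replicate 3 its log2 fold change of -0.49 was inside the limit. Of 14 TNF superfamily genes with other names 4 were measured, and limma called 0 in both lines, with 1 and 2 of them at an unadjusted p under 0.05. The median log2 fold changes of the 3 lists lay between 0.02 and 0.09 in MDA-MB-468 cells and between -0.01 and 0.17 in MDA-MB-231 cells.

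The change after KO differed between the lines in 11 members, counting TNFRSF1B, which was near 0 FPKM in MDA-MB-468 cells, so that its difference only restates the change in the other line. The difference between the lines, taken as the log2 fold change in MDA-MB-468 minus the log2 fold change of the MDA-MB-231 line, was tested as an interaction in 1 fit of all 12 samples, with an adjusted p under 0.05 and no limit on size. The 11 are 23.9% of the members, and 14.7% of all genes passed. Of them 6 had the higher value in MDA-MB-468 cells (against 7.91% of all genes) and 5 the lower (against 6.83%). An unadjusted p under 0.05 was reached by 18 members (39.1%) and 31.5% of all genes. The loss of SMARCA4 RNA itself also differed, by 0.41 ± 0.11 (adjusted p = 0.027), since it fell further in MDA-MB-231 cells, and its part in the members' differences was not tested. That test no longer passed without MDA-MB-231 control replicate 2, MDA-MB-231 KO replicate 1, MDA-MB-468 control replicates 1 or 2 or MDA-MB-468 KO replicates 2 or 3 (adjusted p of 0.0526 to 0.0668). The share of all called genes that had the higher value in MDA-MB-468 cells was 53.7% and became 41.6% when samples were scaled to the same 75th percentile, so the split by direction depends on the scaling.

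TNFSF9 rose in both lines and more so in MDA-MB-468 cells, with a difference of 0.97 ± 0.22 (adjusted p = 0.0163). TNFSF15 (0.72 ± 0.12, adjusted p = 0.0031), CYCS (0.50 ± 0.12, adjusted p = 0.0223) and FADD (0.43 ± 0.10, adjusted p = 0.0194) had a positive log2 fold change in MDA-MB-468 and a negative one in MDA-MB-231 cells. So did the receptor genes TNFRSF10D (0.49 ± 0.13, adjusted p = 0.0273) and TNFRSF12A (0.32 ± 0.10, adjusted p = 0.0465). For TNFSF15 and FADD every KO sample lay above the controls in MDA-MB-468 cells and below them in MDA-MB-231 cells.

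The opposite pattern held for TNFSF10, with a difference of -1.56 ± 0.38 (adjusted p = 0.0211), TNFRSF1A with -0.55 ± 0.10 (adjusted p = 0.00445) and TNFSF13 with -0.55 ± 0.14 (adjusted p = 0.0249). The ligand TRAIL and the receptor TNFR1 thus had negative log2 fold changes in MDA-MB-468 and positive ones in MDA-MB-231 cells, and for TNFRSF1A no group overlapped its control. BIK (-1.24 ± 0.25, adjusted p = 0.00984) rose in MDA-MB-231 cells and gave 0.11 in the other line. TNFRSF1B gave a difference of -1.09 ± 0.14 (adjusted p = 0.000735), with all MDA-MB-468 samples near 0 FPKM.

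The differences for BIK, TNFRSF1A and TNFSF9 passed under each alternative and without each sample in turn. That of TNFSF15 did so too, except that it fell under the filter on low values and was not tested there. TNFRSF10D no longer passed with a pseudocount of 0.1 (adjusted p = 0.0535) or after quantile normalization (adjusted p = 0.0674). TNFRSF12A did not pass in these fits either (adjusted p of 0.0533 and 0.0875), nor with samples scaled to the same 75th percentile (adjusted p = 0.0738). The differences of FADD, TNFRSF10D and TNFRSF12A lay under 0.5 on the log2 scale, and with the replicate block the adjusted p was 0.0557 for FADD, 0.0662 for TNFRSF12A and 0.064 for TNFSF13. TNFSF10 no longer passed without MDA-MB-468 control replicate 1, MDA-MB-468 KO replicate 2 or MDA-MB-231 KO replicate 1, with an adjusted p of 0.053 to 0.0545. CYCS was lost without MDA-MB-231 control replicate 1, MDA-MB-231 KO replicates 1 or 2 or MDA-MB-468 KO replicate 2 (adjusted p of 0.0507 to 0.0593), and FADD without MDA-MB-468 KO replicate 2 (adjusted p = 0.0541). TNFSF13 was lost without MDA-MB-468 control replicate 2, MDA-MB-468 KO replicates 2 or 3 or MDA-MB-231 KO replicate 1 (adjusted p of 0.0535 to 0.0651). TNFRSF10D was lost without MDA-MB-231 control replicates 1 or 3, MDA-MB-231 KO replicates 1 or 2, MDA-MB-468 control replicate 1 or MDA-MB-468 KO replicates 2 or 3 (adjusted p of 0.0529 to 0.0668). TNFRSF12A was lost without these samples and without MDA-MB-468 control replicate 2 (adjusted p of 0.0827 to 0.113).

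**Figure D3:**
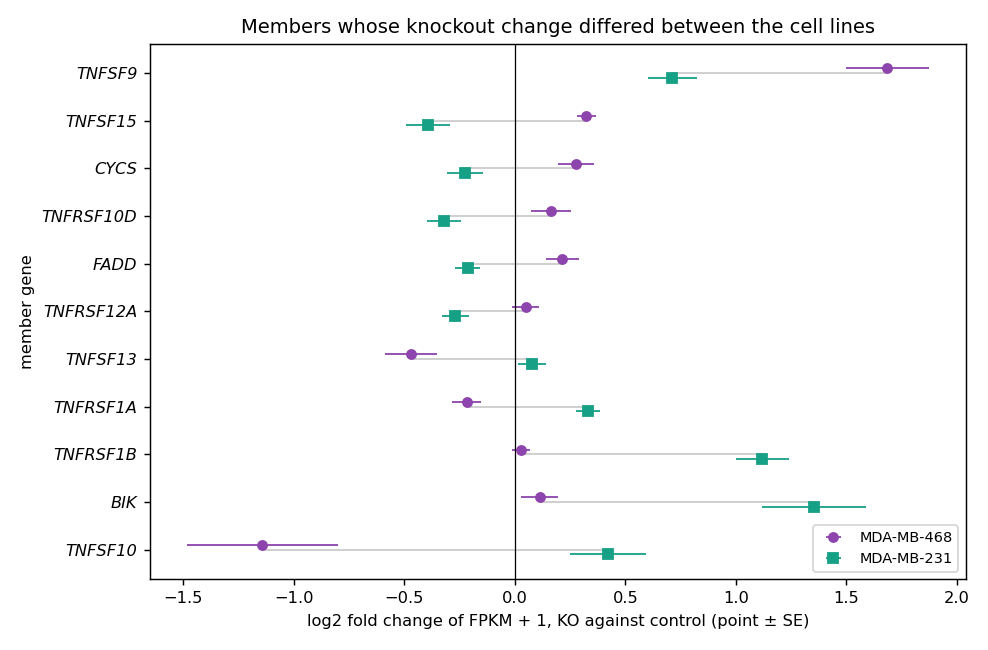
Log2 fold change of FPKM + 1 after KO (x axis, point ± SE) of the 11 members whose change differed between the lines, with MDA-MB-468 as circles and MDA-MB-231 as squares, sorted by the difference. TNFSF9 at the top is positive in both lines, TNFSF10 at the bottom has a circle at -1.14 and a square at 0.42, and BIK and TNFRSF1B are near 0 in MDA-MB-468 cells.

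The control cells of the lines differed in most members. With the thresholds used for KO, 34 of the 46 members (73.9%) differed between control MDA-MB-468 and control MDA-MB-231 cells, 14 higher in MDA-MB-468 (30.4%, against 32.7% of all genes) and 20 lower there (43.5%, against 31.4%), and 64.1% of all genes did. The levels of 41 members (89.1%) did not overlap, 16 higher in MDA-MB-468 (34.8%, against 43.2% of all genes) and 25 lower (54.3%, against 42.3%), in sum against 85.5% of all genes. An unadjusted p under 0.05 was reached by 42 members (91.3%) and 84.5% of all genes. With a log2 difference over 1 there were 20 (43.5%), against 36.0% of all genes, 7 higher (15.2%, against 19.2%) and 13 lower (28.3%, against 16.8%). As the table keeps genes by their spread over both lines, these shares describe the table and not the families. Of the 15 TNF ligands and receptors, 12 had the lower control level in MDA-MB-468 cells, with a median log2 difference of -1.28, against 0.01 for all genes.

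MDA-MB-231 control cells had the higher levels of TRAIL receptors. TNFRSF10B was at a mean of 74.9 ± 2.2 FPKM (SD, n = 3) there and at 12.7 ± 1.1 FPKM in MDA-MB-468 cells, 5.88 times higher. TNFRSF10A was 2.69 times higher, at 14.9 against 5.52 FPKM, and the decoy TNFRSF10D 28.8 times, at 17.6 against 0.61 FPKM. TNFRSF21 was 3.50 times higher and TNFSF15 36.9 times, at 9.59 against 0.26 FPKM. The ligand TNFSF10 itself was at 43.4 ± 7.6 and 39.4 ± 7.6 FPKM, which overlapped (log2 difference -0.14 ± 0.17, adjusted p = 0.464). Genes of proteins that restrain these receptors and the mitochondrial route went both ways. Of the 4 caspase inhibitors and their antagonist 2 passed, CFLAR at 3.14 times and BIRC2 at 2.31 times the MDA-MB-468 level, and of the 3 protective BCL2 genes 1 passed, BCL2L1 at 4.41 times (266 ± 17 against 60.4 ± 1.3 FPKM). XIAP and BCL2L2 were instead 1.29 and 1.24 times higher in MDA-MB-468 cells, in every sample, with adjusted p of 0.00573 and 0.0055 but under the fold limit. BAX was 2.06 times higher in MDA-MB-231 cells.

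MDA-MB-468 control cells had the higher levels of the inflammatory caspases, while the BH3-only genes were split. CASP1 was at 23.0 ± 2.1 against 0.803 ± 0.50 FPKM, 28.6 times higher, CASP4 2.85 times and the initiator CASP10 4.31 times, and CASP14 was at 1081 ± 138 FPKM against a listed 0. All 7 BH3-only genes passed, 4 as higher in MDA-MB-468 and 3 as higher in MDA-MB-231 cells. Among the former, BIK was 2.67 times higher, at 8.38 ± 0.73 against 3.14 ± 1.05 FPKM, BMF 3.22 times, BID 1.83 times and BCL2L11 1.73 times. Among the latter, PMAIP1 was 4.02 times higher, BBC3 2.00 times (adjusted p = 0.000387) and BAD 1.46 times (adjusted p = 0.00279). TNFSF13 was 3.96 times higher in MDA-MB-468 cells. For MCL1, CYCS and BCL2L12 the control levels of the lines overlapped, with log2 differences of 0.28, 0.09 and -0.05 and adjusted p of 0.0829, 0.40 and 0.658.

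**Figure D4:**
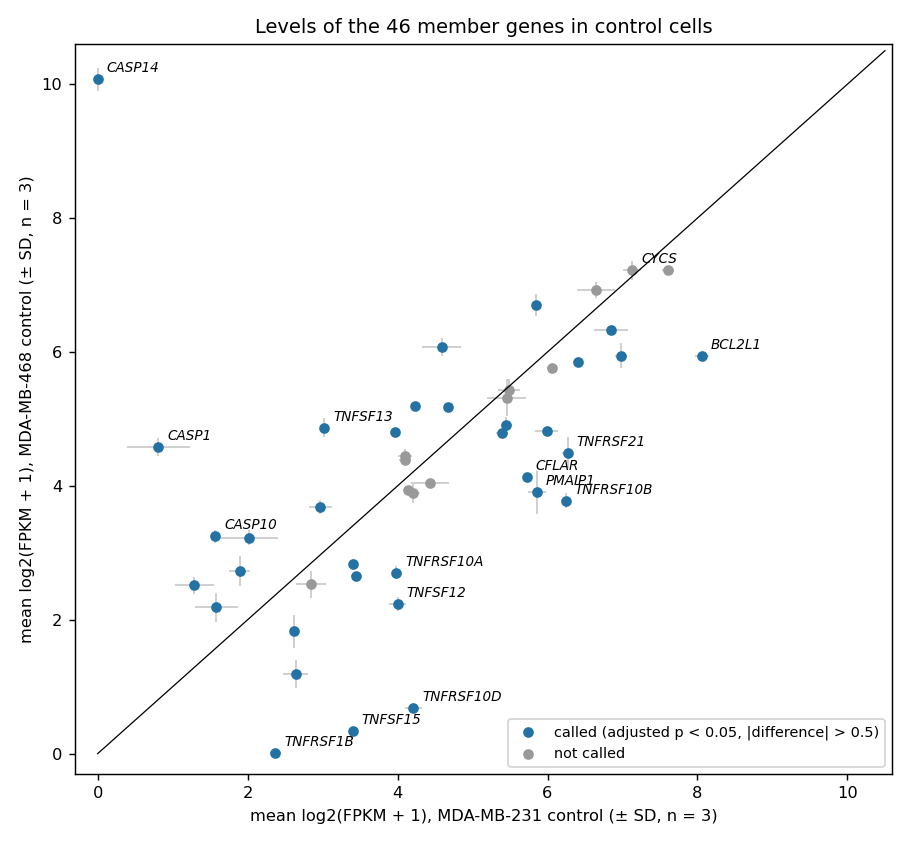
Mean log2(FPKM + 1) of the 46 members in MDA-MB-231 controls (x axis) and MDA-MB-468 controls (y axis), with whiskers for the SD of 3 samples and a line of equal levels. Blue points are the 34 members that passed the test, with TNFRSF10D, TNFSF15, TNFRSF10B and BCL2L1 below the line and CASP14, CASP1 and TNFSF13 above it.

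In the order of levels per length, CASP14 led in MDA-MB-468 controls, followed by TNFRSF12A (149 ± 6 FPKM) and CYCS (148 ± 14 FPKM), which did not differ beyond their spread. BCL2L1 led in MDA-MB-231 controls, followed by TNFRSF12A (194 ± 10 FPKM) and CYCS (139 ± 11 FPKM). The members' mean level over the 12 samples ranged from 3.16 FPKM for BMF to 485 FPKM for CASP14, with a median of 19.5 FPKM, against 17.5 FPKM for all genes.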

How the data were processed

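RNA-seq of 12 samples of 2 cell lines was used, in groups taken from the GEO labels. Per the labels and the study's methods, libraries were made with a stranded mRNA kit, reads were trimmed with Trimmomatic, aligned with STAR to hg19 and quantified with RSEM, and the authors dropped genes whose mean FPKM or whose SD was below 1 before they deposited the values as log2(FPKM + 1). In the deposited log2 values the smallest mean was 1.07 and the smallest SD 1.00 FPKM. Whether counting used strand is not given in the sources used here, and the depth is unknown, so no interval that needs counts is given. The 18 rows with a date for a symbol were tested and not named.

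For each line, 3 KO and 3 control samples were compared on the deposited values by limma 3.58.1 (R 4.3.3), using lmFit and then eBayes with no trend and no further filter. Control cells of the lines were compared likewise, and the difference between the lines was a contrast of 1 fit of all 12 samples. All p-values were adjusted over 11529 genes by the Benjamini-Hochberg method, with thresholds of 0.05 and, except for the difference, 0.5 on the log2 scale. FPKM were obtained as 2 to the power of the value, less 1. The fits were tested on simulated data.

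The main fits used no pairs, and replicate numbers in the titles served as pairs only in the replicate block, an alternative. In MDA-MB-468 cells the deviations of same-numbered KO and control samples from their group means correlated at 0.254, 0.161 and 0.119. Those of unlike-numbered samples correlated at -0.232 to 0.131. In MDA-MB-231 cells the same-numbered samples gave -0.0543, 0.0741 and -0.115, and the others -0.188 to 0.221. Alternatives were another pseudocount (0.1), a filter (mean log2 value over 2), 2 scalings, an intensity trend, 1 fit of all samples, blocks, other thresholds and leaving out each sample.

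Named are the members called in a KO comparison or the difference, the highest of each role, the 5 with the largest change per line, a set of core apoptosis genes, SMARCA4, and listed pathway genes called after KO; others illustrate their role. Results of 2 members are not reported here, though they are in the counts. The members and lists were chosen with earlier results of these data known. Promoter windows came from RefSeq (GRCh38.p14), and figures were drawn with matplotlib 3.10.9.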

Additional observations from a re-analysis of the deposited data

Results flagged for a closer look

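Each value here is the log2 fold change after KO of the MDA-MB-468 line less that of the other line, and it is listed because the interaction test of limma gave an adjusted p under 0.05. The KO change was more positive in MDA-MB-468 cells for TNFSF9 (0.972), TNFSF15 (0.719), CYCS (0.50), TNFRSF10D (0.485), FADD (0.43) and TNFRSF12A (0.319). Among the genes that are no members but were named, CRADD differed in this direction (0.461, adjusted p = 0.017), with a log2 fold change of -0.10 in MDA-MB-468 cells against -0.56 for the MDA-MB-231 line. So did the targeted gene SMARCA4 (0.41, adjusted p = 0.027) and the mesenchymal marker VIM (0.809, adjusted p = 0.0192). By limma within each line, VIM did not pass in MDA-MB-468 cells (log2 fold change 0.42, adjusted p = 0.21). In MDA-MB-231 cells it gave -0.39 (adjusted p = 0.0309), under the fold limit. The KO change was more negative in MDA-MB-468 cells for TNFSF10 (-1.56), BIK (-1.24), TNFRSF1B (-1.09), TNFRSF1A (-0.55) and TNFSF13 (-0.547). TNFRSF1B was near 0 FPKM in MDA-MB-468 cells, so its value restates the change in the other line. CD14 (-1.75, adjusted p = 0.0257) and the epithelial marker CDH1 (-0.756, adjusted p = 0.0137) also differed in this direction, CD14 no longer without MDA-MB-231 control replicate 1, MDA-MB-231 KO replicates 1 or 2, MDA-MB-468 control replicates 1 or 2 or MDA-MB-468 KO replicate 2 (adjusted p of 0.0525 to 0.0653). By limma within each line, CDH1 did not pass in MDA-MB-468 cells (log2 fold change -0.22, adjusted p = 0.274). In MDA-MB-231 cells CDH1 rose from a mean of 0.267 to 0.84 FPKM (log2 fold change 0.54, adjusted p = 0.0442). That call was lost without any 1 of the 6 samples. No cause of these differences was tested.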

How the results depend on the processing

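The count of members called in MDA-MB-468 cells (1, TNFSF9) was 2 with a pseudocount of 0.1 (TNFSF15 added) and 2 in 1 fit of all 12 samples (TNFSF10 added). It was 2 with no fold limit, 3 with an unadjusted p and the fold limit kept, and 0 with a block by the number in the sample descriptions. When 1 sample was left out it was 0 to 4. In MDA-MB-231 cells the count (4) was 7 with no fold limit, 2 with a log2 fold change over 1 and 1 to 4 when 1 sample was left out. With the replicate block it was 0 there, where 0 genes passed in all (smallest adjusted p = 0.052, with 3126 genes at an unadjusted p under 0.05). In that line the numbers in the titles and in the sample descriptions give the same pairs. Whether the samples were made as pairs is not stated, and the correlations of their deviations cannot decide it. In MDA-MB-468 cells the pairing left 1 member and 241 genes, and it changed no other member's call in that comparison. For the difference between the lines the count (11) was 18 with an unadjusted p and 6 to 13 when 1 sample was left out. Between the controls the count (34) was 20 with a log2 difference over 1. No value called in a KO comparison or in the difference changed its sign under any alternative, while values near 0 of some other members did. Signs were not followed for the comparison of the controls. Over all genes, the count in MDA-MB-468 cells (247) was 537 in 1 fit and 0 with the block by description number (smallest adjusted p = 0.14, with 2218 genes at an unadjusted p under 0.05). It was 53 with a log2 fold change over 1, 432 with no fold limit and 614 with an unadjusted p and the fold limit kept. When 1 sample was left out it was 0 to 474. In MDA-MB-231 cells it (426) was 85 with a log2 fold change over 1, 1248 with no fold limit and 99 to 311 with 1 sample left out. For the difference (1699) it was 1004 with a size over 0.5, 3632 with an unadjusted p and 924 to 1897 with 1 sample left out, and between the controls (7395) it was 4150 with a log2 difference over 1. The causes were not tested, and a fit without 1 sample also had fewer samples. The unknown depth limits what can be said of genes near 0, such as TNFRSF1B and TNFSF15 in MDA-MB-468 cells.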
